A study of Mus musculus with 9 samples.

Results

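The TAM family consists of the receptor tyrosine kinases Tyro3, Axl and Mertk with their ligands Gas6 and Pros1, and the 5 genes were followed here through substantia nigra RNA-seq libraries from fasted mice. Members were taken by gene symbol from a table of 20591 genes, and all 5 were found and passed the filter on low counts, which left 20535 genes. The libraries came from substantia nigra lysate, the midbrain region that holds dopaminergic neurons, of C57BL/6 mice that were 12 weeks old when allocated to a diet. All groups carry the label Sham in place of a genotype. The 9 libraries form 3 groups of 3: a 1 week group on intermittent fasting with 3 fasts of 24 hours, a 1 day group fasted for 1 day, and an ad libitum group fed freely for 1 week, whose mice changed cages at the same times. Each fast began 2 hours before lights off. The labels give neither the time between the last fast and sampling nor whether each library is a separate animal, so p-values measure only the spread between these libraries, which may be technical. The members were chosen by symbol, with no threshold, at a time when the fold changes and calls of these libraries were already known. Their levels and differences are therefore given as a description, without p-values, in all 3 comparisons. Where it is stated whether a member passed a threshold, that is also a description and gives no support.

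TAM receptors recognise dying cells and shed membrane through their ligands. The amino-terminal domain of Gas6 or Pros1, made functional by vitamin K dependent carboxylation, binds phosphatidylserine on the target, while the other end binds the receptor on the engulfing cell. In brain, Mertk is known for the uptake of apoptotic cells and synaptic material by microglia and astrocytes, Axl for its presence in activated microglia and in vessels, and Tyro3 for its expression in neurons. The same receptors dampen innate immune signalling, and the proteases Adam10 and Adam17 can release their extracellular parts as soluble decoys.

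Library totals ranged from 36109995 to 54248856 estimated counts, and the members had between 514 (Pros1) and 5994 (Gas6) counts in a single library. Replicate 2 of the 1 week group and replicate 2 of the 1 day group had the lowest quality weights by limma voom (0.507 and 0.213, against 0.972 to 1.93 in the other 7 libraries). By edgeR, 63 genes changed in the 1 week group against the ad libitum group, 12 in the 1 day group against the ad libitum group, and 0 in the 1 week group against the 1 day group, where 1071 genes had an unadjusted p under 0.05 and DESeq2 called 7 genes.

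Mertk was higher in both fasted groups than in the ad libitum group, about 2.12-fold after 1 week and 1.55-fold after 1 day, while the other receptors and both ligands were within 1.09-fold of their ad libitum level. Mertk (ENSMUSG00000014361), the receptor best known for engulfment of apoptotic cells, stood at 45.1, 55.7 and 54.7 CPM (counts scaled to library size with TMM factors) in the 1 week libraries, 42.2, 37.3 and 33.9 CPM in the 1 day libraries and 23.5, 26.1 and 23.8 CPM in the ad libitum libraries. The 3 groups did not overlap: the lowest 1 week library lay above the highest 1 day library, and the lowest 1 day library above the highest ad libitum library. Its mean level was 51.8 ± 5.84 CPM after 1 week, 37.8 ± 4.21 CPM after 1 day and 24.4 ± 1.41 CPM in ad libitum mice (SD, n = 3 each). The log2 fold change was 1.08 (SE 0.12) for 1 week against ad libitum, 0.63 (SE 0.12) for 1 day against ad libitum and 0.46 (SE 0.12) for 1 week against 1 day. Each pair of these comparisons has 1 group of libraries in common. In absolute size, 2.74% of all genes tested differed by more than Mertk in 1 week against ad libitum, 9.32% in 1 day against ad libitum and 13.1% in 1 week against 1 day.

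Of the 5 members, 1 (Mertk) lay past edgeR's threshold for 1 week against ad libitum, where 0.307% of all genes did. For 1 day against ad libitum 0 of 5 did, where 0.0584% of all genes did, and for 1 week against 1 day 0 of 5 did, where 0% of all genes did. By direction, 0.253% of all genes were higher and 0.0536% lower for 1 week against ad libitum, and 0.0536% were higher and 0.00487% lower for 1 day against ad libitum. Because these calls were known when the family was proposed, nothing is read from the members' counts. The call of Mertk after 1 week ended without ad libitum replicate 1, 2 or 3, although its log2 fold change was then 1.06, 1.13 and 1.07. DESeq2 also called Mertk for 1 day against ad libitum, with a log2 fold change of 0.64. Mertk was the 1 member whose groups did not overlap, being higher in the first-named group of each comparison. Among all genes tested, 22.4% did not overlap in 1 week against ad libitum (10.9% higher, 11.5% lower). In 1 day against ad libitum 18.5% did not overlap (8.17% higher, 10.3% lower), and in 1 week against 1 day 7.79% did not (4.5% higher, 3.28% lower).

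**Figure D1:**
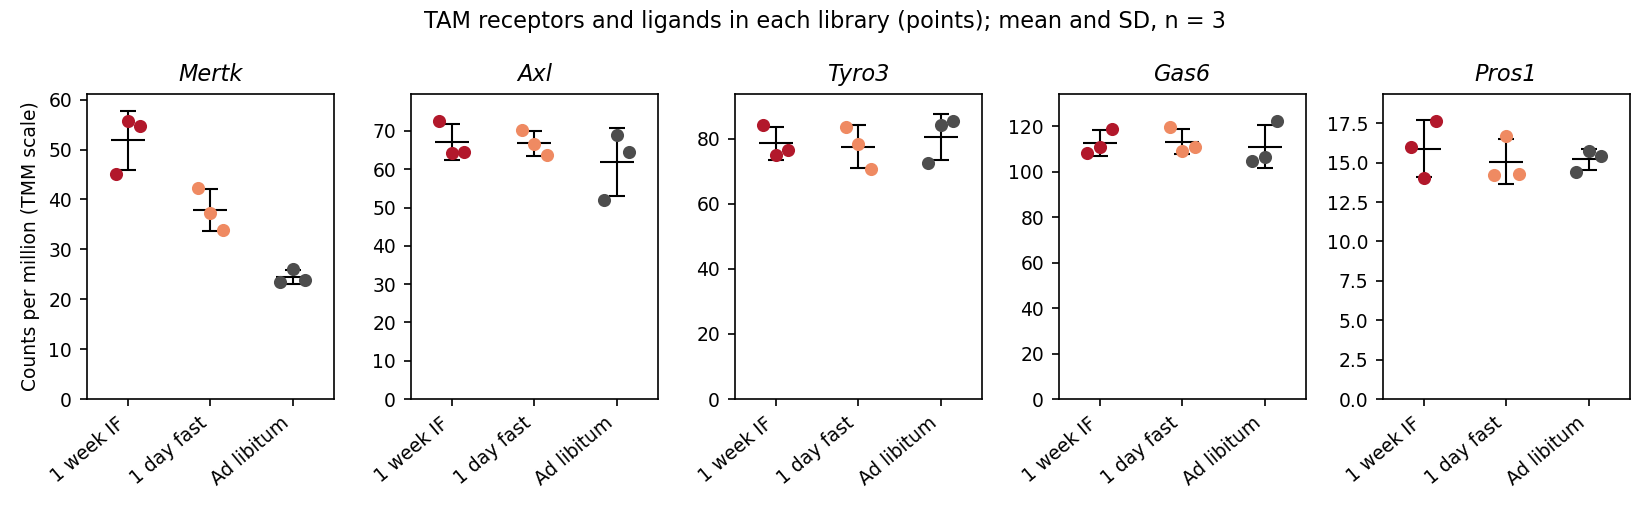
Level of each family member in CPM (y axis, from 0) in the 1 week intermittent fasting, 1 day fast and ad libitum libraries; points are libraries, bars the mean and SD of 3. Mertk separates into 3 levels of 51.8, 37.8 and 24.4 CPM, while the groups overlap for Axl, Tyro3, Gas6 and Pros1.

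The other receptors showed no such separation. Axl (ENSMUSG00000002602), the receptor that binds Gas6 most tightly and is induced in inflamed tissue, was at 72.5, 64.4 and 64.6 CPM in the 1 week libraries, 70.2, 66.6 and 63.7 CPM in the 1 day libraries and 52.0, 69.1 and 64.6 CPM in the ad libitum libraries. The groups overlapped, and the single low value was that of ad libitum replicate 1. The log2 fold change of Axl was 0.12 (SE 0.12) for 1 week against ad libitum, 0.11 (SE 0.12) for 1 day against ad libitum and 0.0075 (SE 0.12) for 1 week against 1 day. Tyro3 (ENSMUSG00000027298), the neuronal member, was at 84.3, 75.0 and 76.6 CPM in the 1 week libraries, 83.7, 78.5 and 70.6 CPM in the 1 day libraries and 72.5, 84.2 and 85.4 CPM in the ad libitum libraries. These ranges lie on top of each other, and the log2 fold change of Tyro3 was -0.038 (SE 0.11) for 1 week against ad libitum, -0.056 (SE 0.11) for 1 day against ad libitum and 0.019 (SE 0.11) for 1 week against 1 day.

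The start regions of Mertk, the receptor whose groups separated, and of Axl, a receptor of the same family whose groups overlapped, are printed for comparison. Each is 300 bases from RefSeq (GRCm38.p6), 250 before and 50 after the annotated start, and capitals mark matches to the motifs searched on both strands. Mertk is at chr2:128698665-128698964 (plus strand) and Axl at chr7:25788684-25788983 (minus strand).
Mertk: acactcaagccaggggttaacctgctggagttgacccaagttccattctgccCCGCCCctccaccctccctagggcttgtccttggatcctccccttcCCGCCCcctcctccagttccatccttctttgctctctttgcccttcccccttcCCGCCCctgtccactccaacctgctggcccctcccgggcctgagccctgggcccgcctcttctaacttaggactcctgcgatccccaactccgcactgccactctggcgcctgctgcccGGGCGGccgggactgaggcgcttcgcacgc
Axl: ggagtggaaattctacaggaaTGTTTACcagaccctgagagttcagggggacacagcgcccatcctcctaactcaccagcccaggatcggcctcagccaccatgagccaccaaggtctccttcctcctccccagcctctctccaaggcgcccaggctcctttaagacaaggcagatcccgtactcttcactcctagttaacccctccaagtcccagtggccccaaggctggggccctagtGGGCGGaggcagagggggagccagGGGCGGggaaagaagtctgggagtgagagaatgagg
The motifs were the glucocorticoid response element, the LXR element of direct repeats, the FoxO element GTAAACA and the GC box GGGCGG, the last added after the members' values had been seen. The glucocorticoid and LXR motifs were in 0 of the 5 members' windows, and in 0.475% and 0.0152% of all 32851 windows. The FoxO motif was in the Axl window alone, once, and in 3.65% of all windows. GC boxes, which bind Sp and Krüppel-like factors, were in all 5 members' windows (4 matches in Mertk, 2 in Axl, 6 in Tyro3, 4 in Gas6 and 5 in Pros1, some of which overlap in Tyro3 and Pros1) and in 35.7% of all windows. The GC box consists of G and C alone, and these bases made up 58.3% (Gas6) to 73.3% (Tyro3) of the members' windows. A match to any motif says only that its letters occur in the window.

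Both ligands were also at overlapping levels in the 3 groups. Gas6 (ENSMUSG00000031451), the ligand that can engage all TAM receptors, was at 108, 111 and 119 CPM in the 1 week libraries, 119.6, 109 and 111 CPM in the 1 day libraries and 104, 107 and 122 CPM in the ad libitum libraries. Its log2 fold change was 0.020 (SE 0.098) for 1 week against ad libitum and 0.027 (SE 0.098) for 1 day against ad libitum, and its SD within groups, 0.0917 on the log2 scale, was the lowest of the 5 members. Pros1 (ENSMUSG00000022912), which encodes protein S, an anticoagulant of plasma that also serves Mertk and Tyro3 as a ligand, was at 15.97, 14.02 and 17.6 CPM in the 1 week libraries, 14.2, 16.7 and 14.3 CPM in the 1 day libraries and 14.4, 15.7 and 15.4 CPM in the ad libitum libraries. Its log2 fold change was 0.062 (SE 0.12) for 1 week against ad libitum, -0.013 (SE 0.12) for 1 day against ad libitum and 0.076 (SE 0.12) for 1 week against 1 day. That last value was 0.25 without the 2 libraries of low weight.

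**Figure D2:**
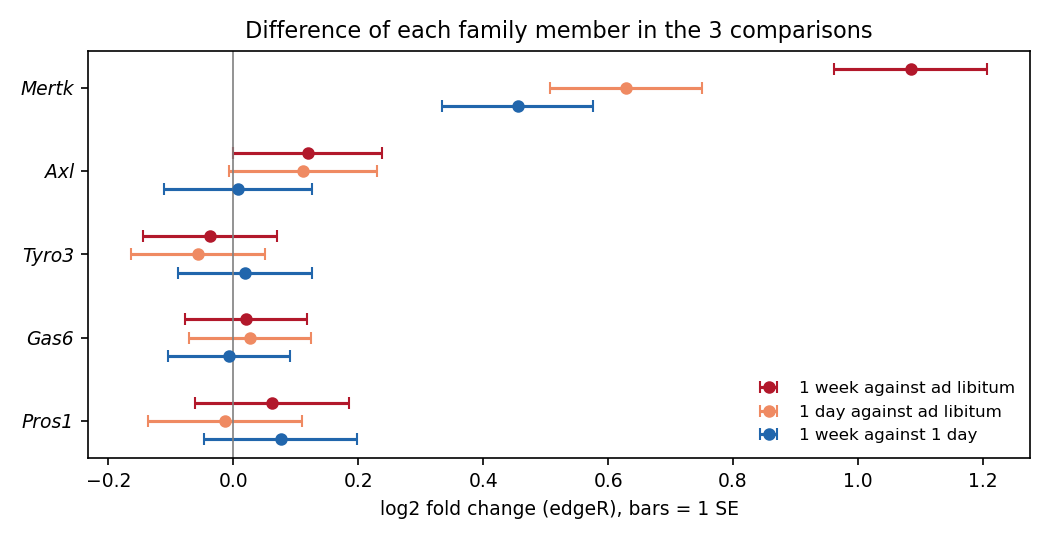
log2 fold change (x axis, edgeR; bars are 1 SE) of each family member in 1 week against ad libitum, 1 day against ad libitum and 1 week against 1 day. Mertk lies at 1.08, 0.63 and 0.46, and the other members lie between -0.056 and 0.12.

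Levels of different members were compared per kilobase of the longest annotated transcript. On this scale Gas6 was the highest, followed by Tyro3, Axl, Mertk and Pros1, in each of the 3 groups, and the order was the same per kilobase of coding sequence. Gas6 averaged 44.2 ± 2.23 CPM per kb in the 1 week group, 44.4 ± 2.20 in the 1 day group and 43.6 ± 3.79 in the ad libitum group (SD, n = 3 each). Tyro3 averaged 17.6 ± 1.12, 17.4 ± 1.48 and 18.1 ± 1.60 CPM per kb in the same order of groups, and Axl averaged 15.7 ± 1.09, 15.7 ± 0.762 and 14.5 ± 2.08 CPM per kb. The ranges of Tyro3 and Axl overlapped within the 1 week group and within the 1 day group. Mertk averaged 12.1 ± 1.36 CPM per kb in the 1 week group, 8.79 ± 0.979 in the 1 day group and 5.68 ± 0.328 in the ad libitum group. Pros1 averaged 4.81 ± 0.548, 4.56 ± 0.429 and 4.60 ± 0.208 CPM per kb in the same order of groups. Mertk lay closest to Axl in the 1 week group and closest to Pros1 in the ad libitum group.

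The receptor make-up follows from these levels by arithmetic and is given as a description. Mertk made up 22.6%, 28.9% and 28.2% of the 3 receptors' summed CPM per kb in the 1 week libraries, 21.8%, 20.7% and 20.4% in the 1 day libraries and 16.1%, 14.7% and 13.9% in the ad libitum libraries. The groups did not overlap, although 1 week replicate 1 lay close to 1 day replicate 1. Tyro3 had a share of 38.8 ± 1.72% in the 1 week group, 41.6 ± 0.532% in the 1 day group and 47.3 ± 1.24% in the ad libitum group (SD, n = 3 each). The summed receptor level was 45.4 ± 0.843 CPM per kb in the 1 week group, 41.9 ± 3.20 in the 1 day group and 38.3 ± 3.85 in the ad libitum group. The summed ligand level was 49.0 ± 2.63, 49.0 ± 1.94 and 48.2 ± 3.88 CPM per kb. Gas6 supplied 90.2 ± 0.787%, 90.7 ± 1.11% and 90.4 ± 0.672% of the summed ligand level in the same order of groups.

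**Figure D3:**
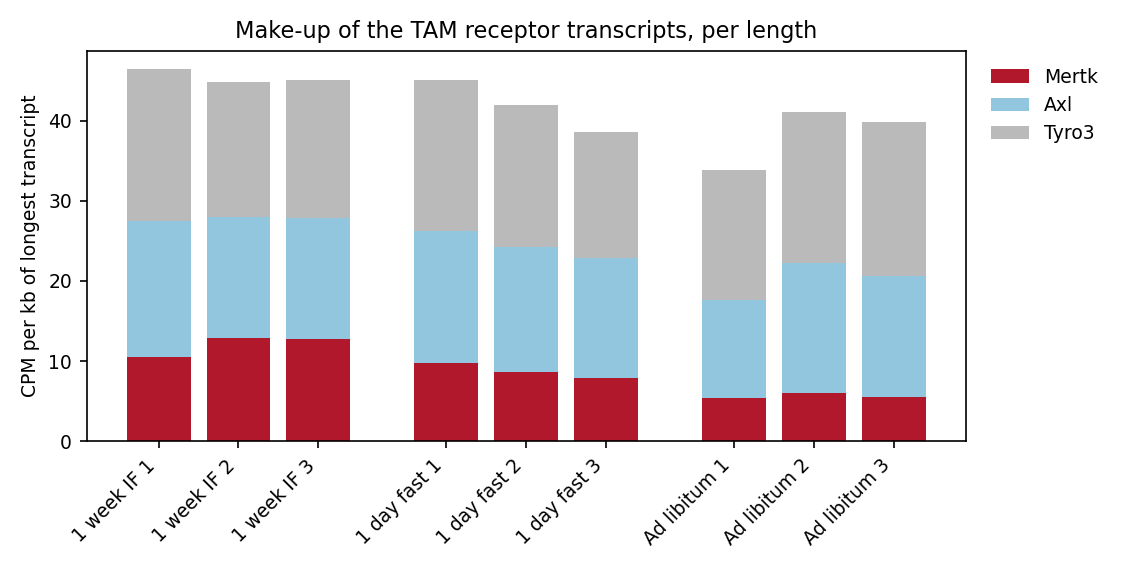
Stacked levels of Mertk, Axl and Tyro3 (y axis, CPM per kb of the longest transcript, from 0) in each of the 9 libraries, with the 1 week, 1 day and ad libitum groups side by side. Mertk supplies 22.6% to 28.9% of the stack in the 1 week libraries and 13.9% to 16.1% in the ad libitum libraries.

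For each member the genes with the closest pattern over the 9 libraries were taken by Pearson's r of log2 CPM among 13891 named genes of sufficient level, as a description that the group differences and the shared libraries both enter. Mertk was most like Klf15 (r = 0.988, Spearman's rho 1.00), a Krüppel-like transcription factor, Klf13 (r = 0.979, rho 0.95), another factor of that family, and Slc2a1 (r = 0.976, rho 0.98), the glucose transporter of the blood-brain barrier and astrocytes. Klf15 was at 50.9, 65.2 and 57.8 CPM in the 1 week libraries, 49.97, 40.1 and 39.8 CPM in the 1 day libraries and 23.0, 28.2 and 27.0 CPM in the ad libitum libraries. Ranked over the 9 libraries, Klf15 and Mertk had the same order. Axl was most like Itga7 (r = 0.946), a laminin-binding integrin subunit, and Tyro3 like Ano1 (r = 0.949), a calcium-activated chloride channel. Gas6 was most like Cntrl (r = 0.926), a centrosome protein, and Pros1 like Plekha2 (r = 0.948). None of these 4 genes differed between groups by more than 0.21 on the log2 scale in either comparison with the ad libitum group.

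The other genes through which the family works were taken from 10 lists of 119 genes, of which 110 were tested and 9 were not analysed here. In 1 week against ad libitum 1 of the 110 passed edgeR's test, Nfkbia. That is 0.909%, against 0.307% of all genes. The lists were chosen with earlier results of these data known, so nothing is read from their counts. Of the 110, 0 passed in 1 day against ad libitum, where 0.0584% of all genes did. An unadjusted p under 0.05 was found in 16 of the 110 for 1 week and 22 for 1 day against ad libitum, beside 2305 and 1904 of all 20535 genes. In 1 week against 1 day 0 of 110 passed and 9 had an unadjusted p under 0.05, beside 1071 of all genes. The median log2 fold change of the 110 was -0.043 in 1 week against ad libitum and -0.12 in 1 day against ad libitum, beside medians of -0.0013 and 0.00041 over all genes.

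Nfkbia, the inhibitor of NF-kB, is on the list of cytokine signalling genes under TAM feedback, which was chosen with earlier results known. It was at 38.02, 40.3 and 46.1 CPM in the 1 week libraries, 39.0, 21.5 and 33.7 CPM in the 1 day libraries and 16.9, 15.8 and 15.3 CPM in the ad libitum libraries. Every fasted library lay above every ad libitum library. It rose 2.59-fold in 1 week against ad libitum (log2 fold change 1.37, SE 0.19, edgeR adjusted p = 0.0238), and its value in 1 day against ad libitum was 0.97 (SE 0.19, adjusted p = 0.147). The 1 day difference was called by DESeq2 (adjusted p = 0.00075), by limma voom (0.0123), without the 2 libraries of low weight (0.0148) and without 1 day replicate 2 (log2 fold change 1.19, adjusted p = 0.0061). The last 2 of these settings both leave out 1 day replicate 2, the fasted library with the lowest Nfkbia. The remaining alternatives did not call the 1 day difference. The 1 week call ended when any 1 ad libitum library, 1 week replicate 2 or 1 week replicate 3 was left out, with adjusted p between 0.0745 and 0.167 and log2 fold changes of 1.29 to 1.42. The other 12 tested genes of that list did not pass in 1 week against ad libitum. Socs3, a feedback inhibitor of cytokine receptors, had a log2 fold change of -0.27 (SE 0.27) for 1 week against ad libitum.

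Among 6 genes of receptor shedding 0 passed in any comparison. Of the proteases, Adam10 had a log2 fold change of -0.084 (SE 0.17) and Adam17 one of -0.22 (SE 0.13) for 1 week against ad libitum. Timp3, an inhibitor of Adam17, was at 248, 270.3 and 289.8 CPM in the 1 week libraries, 196, 219 and 177 CPM in the 1 day libraries and 160.3, 184 and 184 CPM in the ad libitum libraries. Its 1 week libraries lay above all others, and it missed the threshold for 1 week against ad libitum (log2 fold change 0.61, SE 0.11, edgeR adjusted p = 0.0654), which it passed without 1 day replicate 2 (adjusted p = 0.0276). Frmd8, which stabilises the iRhom and Adam17 complex, was at 34.4, 21.3 and 28.7 CPM in the 1 week libraries, 28.4, 22.3 and 24.2 CPM in the 1 day libraries and 45.8, 48.9 and 49.3 CPM in the ad libitum libraries. Every fasted library lay below the ad libitum libraries, and neither comparison passed (log2 fold change -0.77, SE 0.16, adjusted p = 0.107 for 1 week; -0.94, SE 0.17, adjusted p = 0.104 for 1 day). DESeq2 and limma voom both called Timp3 and Frmd8 for 1 week and Frmd8 for 1 day against ad libitum. Frmd8 also passed for 1 day in the 6 libraries compared (adjusted p = 0.0452), without the 2 libraries of low weight (0.0302) and without 1 week replicate 2 (0.0327), and Timp3 for 1 week in the 6 libraries compared (0.0419). Beyond the settings named here, neither gene passed.

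Of 7 genes of the vitamin K cycle and ligand maturation 0 passed. Ggcx, the carboxylase that gives Gas6 and Pros1 their phosphatidylserine-binding residues, was at 12.3, 11.1 and 13.9 CPM in the 1 week libraries, 12.9, 11.4 and 14.1 CPM in the 1 day libraries and 18.8, 17.7 and 17.1 CPM in the ad libitum libraries. The fasted libraries all lay below the ad libitum libraries (log2 fold change -0.52, SE 0.13, edgeR adjusted p = 0.154 for 1 week; -0.48, SE 0.13, adjusted p = 0.355 for 1 day). DESeq2 and limma voom called Ggcx for 1 week. Vkorc1, which recycles vitamin K, had a log2 fold change of -0.11 (SE 0.15) for 1 week and -0.21 (SE 0.16) for 1 day. Of the nuclear receptors and targets linked to Mertk expression in macrophages, 0 of 14 passed. Abca1, a cholesterol exporter induced by LXR, was at 132 ± 5.03 CPM after 1 week, 129 ± 7.30 CPM after 1 day and 102 ± 5.80 CPM in ad libitum mice (adjusted p = 0.171 for 1 week and 0.383 for 1 day), and DESeq2 called it for both. Nr1h3, the LXR alpha gene, had a log2 fold change of -0.027 (SE 0.25) for 1 week and -0.53 (SE 0.25) for 1 day.

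Other bridging molecules and phagocytic receptors held 25 tested genes, of which 0 passed, and most values lay on the negative side. In 1 day against ad libitum 20 of the 25 had a negative log2 fold change, 11 of the 25 had an unadjusted p under 0.05 and the median was -0.35. Over all 20535 genes 50.1% were positive and 1904 had such a p. The 12 microglia markers had a median of -0.58 in that comparison, with 0 of 12 positive, 6 with an unadjusted p under 0.05 and 0 past the test. Their part in these values was not tested. In 1 week against ad libitum 16 were negative with a median of -0.12. Stab2, a scavenger receptor that binds phosphatidylserine, was at 2.47, 2.59 and 2.29 CPM in the 1 week libraries, 2.22, 2.17 and 1.78 CPM in the 1 day libraries and 1.501, 1.53 and 1.08 CPM in the ad libitum libraries. Its fasted libraries all lay above the ad libitum libraries (log2 fold change 0.84, SE 0.21, edgeR adjusted p = 0.159 for 1 week), and DESeq2 called it for 1 week (adjusted p = 0.0248). C1qa, a complement subunit of microglia, averaged 23.9 ± 4.83 CPM in the 1 week group, 18.5 ± 3.19 in the 1 day group and 25.9 ± 0.996 in the ad libitum group. Megf10, an engulfment receptor of astrocytes, averaged 56.7 ± 6.28, 60.6 ± 2.53 and 72.3 ± 4.93 CPM. Neither passed (adjusted p from 0.247 to 0.850). Mfge8, a bridging molecule of astrocytes, Itgb5, a subunit of its integrin receptor, and Trem2, a lipid receptor of microglia, had log2 fold changes of -0.15, 0.12 and -0.17 for 1 week against ad libitum. For 1 day against ad libitum these values were -0.29, -0.067 and -0.35. Of 17 genes of the engulfment machinery 0 passed. Dock1, which activates Rac1 downstream of TAM receptors, averaged 69.96 ± 7.28, 68.9 ± 5.62 and 89.6 ± 2.69 CPM (adjusted p = 0.231 for 1 week and 0.383 for 1 day). The remaining lists, on phosphatidylserine exposure (8 tested), signals against engulfment (4), signal adaptors (14) and other reported ligands (2), had 0 genes past the test and medians between -0.062 and 0.043 for 1 week against ad libitum. For 1 day against ad libitum their medians lay between -0.34 (other reported ligands) and 0.11 (phosphatidylserine exposure).

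**Figure D4:**
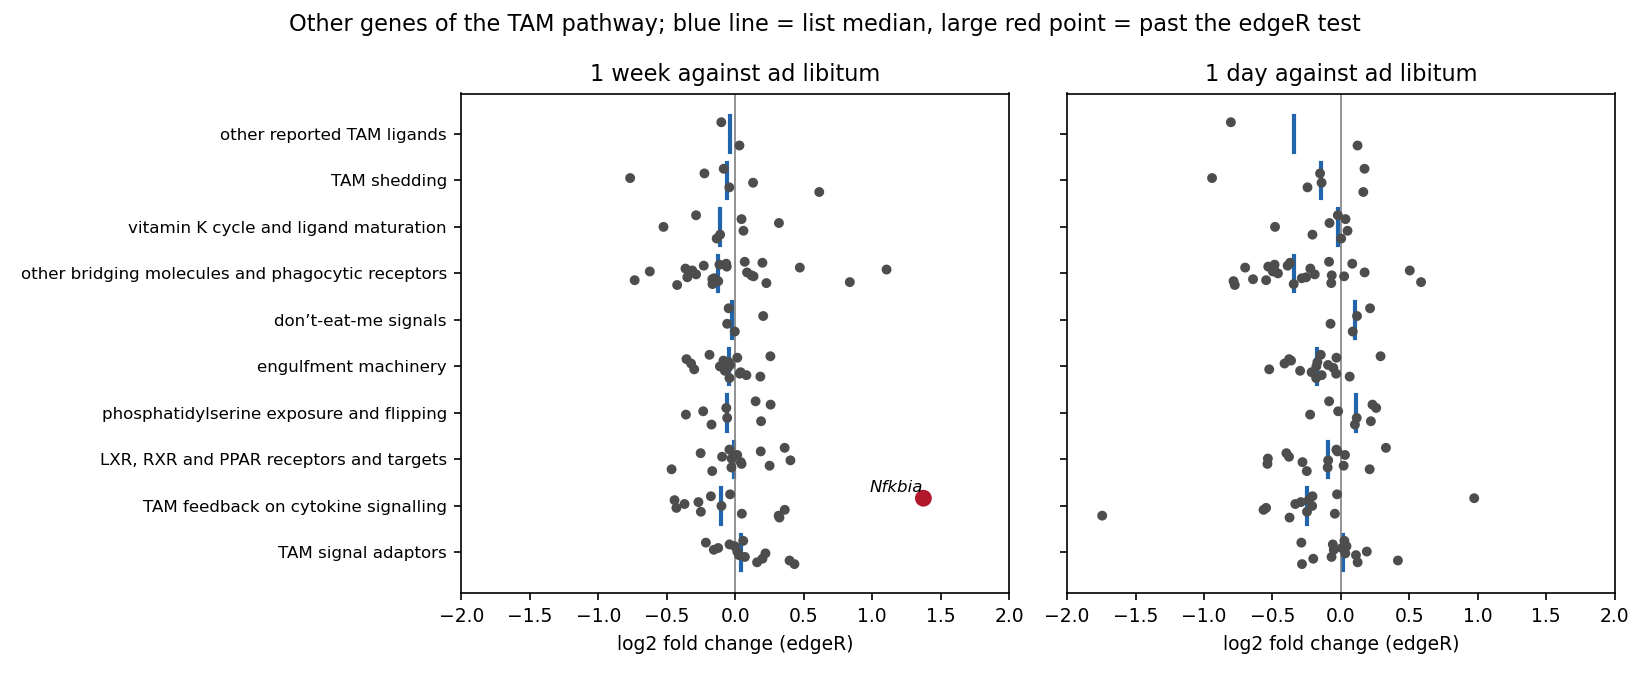
log2 fold change (x axis, edgeR) of each tested gene of 10 lists around the TAM family, for 1 week against ad libitum (left) and 1 day against ad libitum (right); points are genes, blue lines list medians. Nfkbia in the left panel is the 1 gene past the test, and the medians of bridging molecules and phagocytic receptors are -0.12 and -0.35.

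The levels of cell type markers give the setting of these values, since in bulk tissue fewer cells of a type and less RNA per cell cannot be told apart. The 12 microglia markers summed to between 201 and 333 CPM in the 1 week libraries, 229.7 and 272 CPM in the 1 day libraries and 332 and 375 CPM in the ad libitum libraries. Of the 12, 0 passed in either comparison. A positive log2 fold change was found in 1 of 12 for 1 week against ad libitum, 0 of 12 for 1 day against ad libitum and 10 of 12 for 1 week against 1 day, with medians of -0.44, -0.58 and 0.11. The 7 border macrophage markers summed to between 15.4 and 36.4 CPM in the 1 week libraries, 8.72 and 15.1 CPM in the 1 day libraries and 11.6 and 22.5 CPM in the ad libitum libraries. The 1 week libraries overlapped the ad libitum libraries and all lay above the 1 day libraries. Of the 7, 5 had a positive log2 fold change for 1 week with 0 past the test. The 12 astrocyte markers summed to between 5614 and 6000 CPM, 5442 and 6049 CPM and 5388 and 5563 CPM in the same order of groups, with 1 of 12 higher for 1 week, Gjb6, a connexin. All 3 of the 1 week sums lay above the ad libitum sums, while the 1 day sums overlapped both. The astrocyte markers did not all go 1 way. Of the 12, 7 had a positive log2 fold change for 1 week against ad libitum, with a median of 0.093. For 1 day against ad libitum 7 were positive, with a median of 0.11. Neuron, endothelial and mural cell sums overlapped between groups, and oligodendrocyte markers had a median of -0.35 with 2 of 12 lower for 1 week, Ugt8a and Trf. Dopaminergic markers summed to between 695 CPM (1 day replicate 3) and 1730 CPM (1 week replicate 1) over the 9 libraries. No other tissue was compared, so the substantia nigra label was not tested. Blood markers summed to between 498 and 1506 CPM in the 1 week libraries, 282 and 329 CPM in the 1 day libraries and 446 and 483 CPM in the ad libitum libraries. Choroid plexus markers reached 403 CPM in ad libitum replicate 3, against 32.3 to 78.6 CPM in the other 8 libraries. Cortical neuron markers reached 752 CPM in 1 week replicate 3, against 280.4 to 337 CPM in the other 8 libraries, and without that library the log2 fold change of Mertk for 1 week was 1.05. The part of differences in cell make-up in the level of Mertk was not tested.

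**Figure D5:**
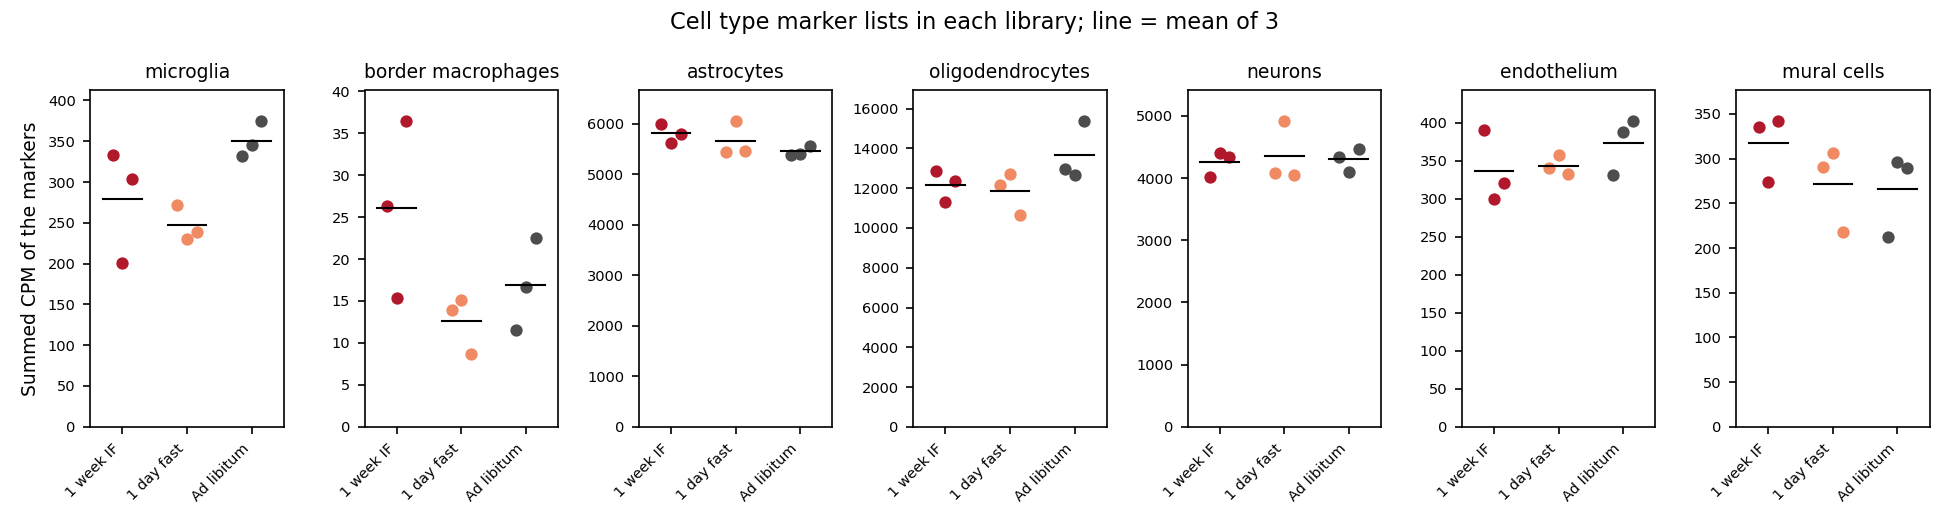
Summed CPM of the marker genes of 7 cell types (y axis, from 0) in the 1 week, 1 day and ad libitum libraries; points are libraries and lines the mean of 3. Microglia sums lie at 201 to 333 CPM in the 1 week libraries and 332 to 375 CPM in the ad libitum libraries, while astrocyte sums lie at 5614 to 6000 and 5388 to 5563 CPM.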

How the data were processed

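RNA-seq was analysed in 9 libraries, 3 per group. Values in the deposited table are estimated counts, one whole number per gene and library, not scaled to depth and used without rounding. Salmon, DESeq2 1.40.2 and the builds GRCm39 and mm39 are named by the submitters' processing notes, while the annotation, how transcripts were summed to genes and any row filter were not stated. Per the labels' protocols, polyA RNA was made into libraries with a directional kit. The lowest row mean is 9.89 counts.

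The test across genes was that of edgeR 4.0.16, run in R 4.3.3 (TMM scaling, filterByExpr with a minimum count of 10 and a minimum total of 15, robust quasi-likelihood fit of all 9 libraries, two-sided F test, Benjamini-Hochberg adjustment over 20535 genes, threshold 0.05). The table's genes were matched by symbol. Levels are CPM, and standard errors come from the F statistic. Log2 CPM used a prior count of 2. Transcript lengths were matched by gene identifier to GENCODE on GRCm38, another build, and all 5 members also matched the RefSeq promoter table. No pair of libraries agreed within sampling noise, with a lowest chi-square per gene of 26.4.

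The members and the lists were chosen with earlier results of these data known. Genes named are the 5 members, list genes past the test, the 2 smallest p-values per list and comparison or fewer, a fixed set, and the 3 genes most like each member or fewer. Gjb6, Ugt8a and Trf, markers past the test, were named after their values were seen. Alternatives were DESeq2 1.42.0, RLE factors, other filters, the 6 libraries compared, limma 3.58.1 voom with quality weights, a replicate block, and leaving out libraries. The fits were tested on simulated data. For 1 week against ad libitum edgeR recovered 9.86% of 1.5-fold, 59.7% of 2-fold and 91.9% of 4-fold changes. For 1 day against ad libitum the shares were 12.3%, 58.2% and 93.4%. A gene that did not pass may therefore still differ, above all by less than 2-fold. DESeq2 recovered 74.6% of 2-fold changes in both of these comparisons, but called more unchanged genes. For 1 week against ad libitum it called 52 unchanged genes, edgeR 8 and limma voom 5. For 1 day against ad libitum the numbers were 50, 13 and 10. Calls by DESeq2 alone are therefore less certain than calls by edgeR.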

Additional observations from a re-analysis of the deposited data

How the results depend on the processing

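Of 255 member log2 fold changes under the alternatives, 254 stayed within 1 SD between replicates of the value given. The exception was Pros1 in 1 week against 1 day, at 0.25 without the 2 libraries of low weight. For members other than Mertk that SD (0.0917 to 0.142) exceeded each difference, so staying within it says little about them. Mertk for 1 week, the only member value called, kept its sign. Values not called did change sign for 1 week against ad libitum. Gas6 ran from -0.022 to 0.10, Tyro3 from -0.11 to 0.014 and Pros1 from -0.016 to 0.15. Mertk ranged from 1.04 to 1.18 for 1 week against ad libitum, and lay past the threshold in 14 of 17 alternatives. It ranged from 0.54 to 0.71 for 1 day against ad libitum, past the threshold under DESeq2 alone. The call of Mertk was known when the family was proposed, so these refits of the same 9 libraries are a description and give no support.

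For 1 week against ad libitum the count of genes called was 458 by DESeq2, 155 in the 6 libraries compared, 218 by limma voom with quality weights and 32 with a replicate block, and 8 to 121 when 1 library was left out (96, 22 and 17 without 1 week replicate 1, 2 and 3, 30 and 121 without 1 day replicate 1 and 2, 8, 11 and 9 without ad libitum replicate 1, 2 and 3). The pathway genes called were then 6, 2 and 4 for the first 3 of these and 0 to 2 with 1 library left out. For 1 day against ad libitum the counts were 184, 26, 57 and 2 under the same settings and 50 without the 2 libraries of low weight, and 0 to 22 with 1 library left out (20 and 22 without 1 week replicate 1 and 2, 2, 22 and 2 without 1 day replicate 1, 2 and 3, 0 without any 1 ad libitum library). The pathway genes called were 3, 1 and 2 under the first 3 settings, 2 without the 2 libraries of low weight and 0 to 1 with 1 library left out. For 1 week against 1 day DESeq2 called 7 genes, and 0 to 3 were called with 1 library left out, the 3 without 1 week replicate 1. The cause of these differences was not tested.

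Replicate numbers did not consistently pair the libraries. Deviations from the group means correlated between -0.243 and 0.411 in the 9 same-numbered pairs over 16266 genes. In the 18 pairs of other numbers they correlated between -0.329 and 0.270. The value of 0.411 was that of 1 week replicate 2 with 1 day replicate 2, the 2 libraries of low weight. With the replicate block Mertk had a log2 fold change of 1.08 for 1 week against ad libitum. By Spearman's rho in place of Pearson's r, 8 of the 15 genes most like the members were the same. The members had at least 514 counts in each library, and the effect of depth was not tested.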
